A study of Mus musculus with 15 samples.

Results

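The family of miR-34 and miR-449 was followed across a mouse model of intracerebral haemorrhage through 6 mature miRNAs, mmu-miR-34a-5p, mmu-miR-34b-5p, mmu-miR-34b-3p, mmu-miR-34c-5p, mmu-miR-34c-3p and mmu-miR-449a-5p. They were taken by name from the 683 distinct miRNA names in the tables, and all 6 were among the 652 miRNAs with enough reads to be tested. The family is named for a seed that its 5p arms share, the stretch near the 5′ end of a miRNA that pairs with target mRNAs. MiR-34a is a well-studied transcriptional target of p53, the tumour suppressor that halts or kills stressed cells, and in many tissues it is the most widely expressed member. MiR-34b and miR-34c come from 1 transcript and, with the miR-449 cluster, are abundant in multiciliated cells, where they are needed to make motile cilia. In the brain such cells line the ventricles as ependyma and cover the choroid plexus, the tissue that makes cerebrospinal fluid.

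Small RNA was sequenced from the basal ganglia of the operated side of wild-type (WT) mice on day 14. The sham group had a sham operation and distilled water by gavage every day, and the ICH group had an intracerebral haemorrhage (a bleed into brain tissue) and the same water. The BYHWD group had the haemorrhage and Buyang Huanwu decoction, a herbal mixture of traditional Chinese medicine, at 6.19 g/kg by gavage once a day for 14 days. Each group has 5 numbered libraries, and all mice were perfused with saline. The extraction protocol in the labels speaks of an exosome pellet although the tissue is given as brain, so tissue and vesicle RNA cannot be told apart. Age and strain were not found in the sources used here. The labels do not say outright that each library is a separate animal, so the p-values measure the spread between these libraries, which may be partly technical.

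The libraries held 4684611 to 9860236 counts with 1 row kept per miRNA, and 674 to 682 miRNAs had at least 1 read. Levels are given as CPM, read counts scaled to a common depth on library sizes corrected by TMM, a method that allows for a few very abundant miRNAs. The TMM factors of sham 4 and sham 5 were 0.667 and 0.721, against 0.954 to 1.20 in the other libraries, so these libraries stand apart. The fold changes of miR-34a-5p against sham and the tested correlations are given with and without sham 4 and sham 5. For the other members, fold changes without both libraries are given only where the sign turned. Untested r values with other miRNAs are given over all 15 libraries only. In the deposited tables each count stands 1 row below its name. The counts used here for miR-34a-5p are printed beside miR-31-5p, those of miR-34b-5p beside miR-505-5p, those of miR-34b-3p beside miR-135a-1-3p, those of miR-34c-5p beside miR-34b-5p, those of miR-34c-3p beside miR-34b-3p and those of miR-449a-5p beside miR-34a-5p. With the names moved 1 row, the 4 pairs of arms from the neighbouring miR-34b and miR-34c hairpins had Pearson r values of 0.955 to 0.984 over the 15 libraries, and as printed these ran from -0.195 to 0.955. Single pairs were also high at other moves, with miR-34b-5p and miR-34c-5p at 1.0 for moves of -4 and 5 rows, but in each other move from -4 to 5 the lowest of the 4 values was at most 0.159. Neuron and brain miRNAs (miR-124-3p, miR-9-5p and miR-128-3p) summed to between 90970 and 145400 CPM in every library, most of it miR-9-5p. Markers of the labelled tissue were thus present.

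The mature sequences show which members share a seed and how far some of them differ. RefSeq, on GRCm38.p6, held a mature entry for 5 of the 6 members, written here 5′ to 3′ with the seed (bases 2 to 8) in capitals. The first set carries the family seed.
mmu-miR-34a-5p: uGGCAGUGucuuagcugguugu
mmu-miR-34b-5p: aGGCAGUGuaauuagcugauugu
mmu-miR-449a-5p: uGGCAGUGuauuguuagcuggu
The second set, the 3p arms of miR-34b and miR-34c, shares another seed.
mmu-miR-34b-3p: aAUCACUAacuccacugccauc
mmu-miR-34c-3p: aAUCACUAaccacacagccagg

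Among all names of the tables with a RefSeq mature entry, 3 carried the seed GGCAGUG and 2 carried AUCACUA, and all of these are members listed above. Compared base by base from the 5′ end, miR-34a-5p and miR-449a-5p were identical at 15 of 22 positions, miR-34b-5p and miR-34a-5p at 11 of 22, and miR-34b-3p and miR-34c-3p at 17 of 22. No other name in the tables had counts within 1% of a member's in every library, and each member stood on 1 row. How reads matching several members were assigned is not stated, so the division of reads between the close paralogs miR-34b and miR-34c carries that uncertainty.

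The miR-34b and miR-34c hairpins are shown because their mature products moved together in the libraries. Both lie on the minus strand of chromosome 9 of GRCm38.p6, miR-34b at chr9:51103562-51103645 and miR-34c at chr9:51103034-51103110, with 451 bases between them. Capitals mark the letters GGCAGUG and AUCACUA.
Mir34b: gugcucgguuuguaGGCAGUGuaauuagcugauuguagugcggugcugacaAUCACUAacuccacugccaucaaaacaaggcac
Mir34c: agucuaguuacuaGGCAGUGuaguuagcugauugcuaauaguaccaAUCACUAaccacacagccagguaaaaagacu
The hairpins fall within the span of Btg4, a protein-coding gene on the opposite strand, outside its exons. Mature miR-34a-5p lies on chromosome 4 at 150068473 to 150068494, plus strand, and its hairpin overlaps an exon of Gm37795, an unclassified transcript on the same strand. Mature miR-449a-5p lies on chromosome 13 at 113037549 to 113037570, plus strand, inside Cdc20b, on the same strand and outside its exons.

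Levels within the family differed widely, and the miR-34b/c transcript gave most of its reads. Over the 15 libraries miR-34c-5p averaged 5440.1 CPM and ranked 35th among the 683 miRNAs. MiR-34b-5p followed at 1453.5 CPM (rank 75), then miR-34a-5p at 556 CPM (rank 123), miR-34b-3p at 99.3 CPM, miR-34c-3p at 43.7 CPM (rank 301) and miR-449a-5p at 11.05 CPM (rank 414). MiR-34c-5p exceeded miR-34b-5p in 15 of 15 libraries, and miR-34a-5p exceeded miR-34b-3p in all 15 with ranges that did not meet. The order of miR-34b-5p and miR-34a-5p was not fixed, as miR-34b-5p was lower in 2 libraries (sham 3 and ICH 4), and miR-34c-3p was below miR-449a-5p in 1 library (sham 5). Of the reads of the 5p arms, miR-34c-5p took 71.9% on average (62.5 to 78.9% over the libraries), miR-34b-5p 18.8%, miR-34a-5p 9.18% and miR-449a-5p 0.181%. The passenger arm miR-34a-3p had 2 to 16 reads a library. Neither miR-449c-5p nor miR-449c-3p was among the names, and miR-449b is not analysed here.

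**Figure D1:**
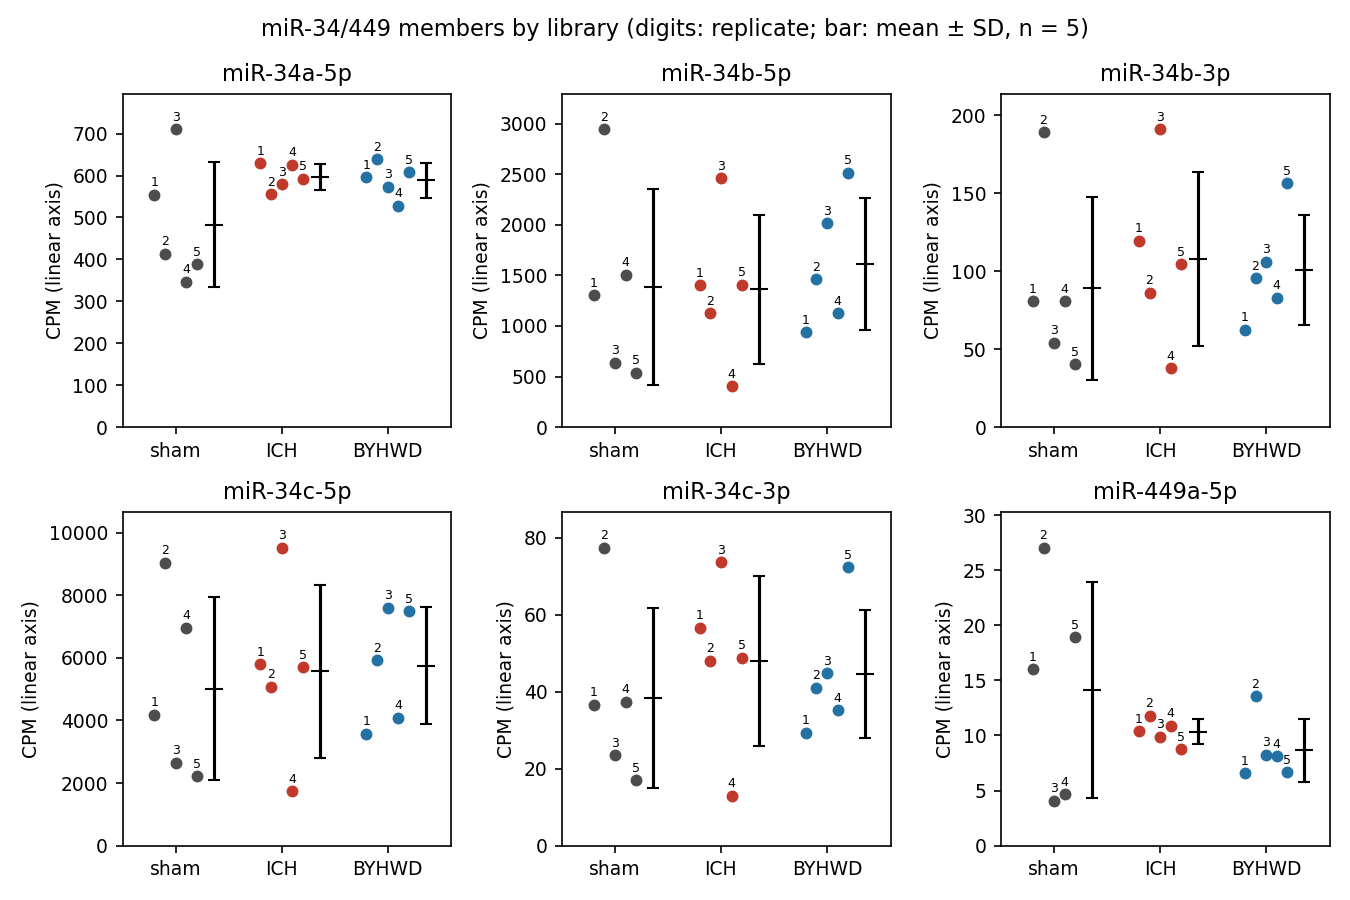
Level of each member in every library (CPM, linear axis from 0, a separate scale in each panel), by group. Points are libraries with their replicate numbers, and the bar beside each group is the mean ± SD (n = 5). The miR-34b and miR-34c panels show the same libraries high (sham 2 and ICH 3) and low (sham 5 and ICH 4), and miR-34a-5p lies in a narrow band in ICH and BYHWD.

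MiR-34c-5p, the most abundant member, varied far more between the libraries of a group than between the group means. In the sham libraries 1 to 5 it was at 4187, 9039.8, 2654, 6964 and 2212 CPM. In the ICH libraries it was at 5806, 5083.5, 9516, 1731 and 5705 CPM, and in the BYHWD libraries at 3581, 5928, 7602, 4093 and 7498 CPM. The highest library, ICH 3, was 5.50 times the lowest, ICH 4, and both belong to the same group. The BYHWD libraries covered a narrower range than the others (a coefficient of variation of 32.5%, against 49.7% in ICH and 58.3% in sham), and all 3 groups overlapped.

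Its partner miR-34b-5p, released from the same transcript and with the same seed, repeated this pattern. Sham libraries 1 to 5 held 1302, 2945, 637, 1506 and 539 CPM. ICH libraries held 1407, 1128, 2462.5, 403 and 1409.6 CPM, and BYHWD libraries 942, 1461, 2018, 1126 and 2515.5 CPM. The lowest libraries were again ICH 4 and sham 5, and the highest were sham 2 and BYHWD 5. The 3p arms spanned 38.0 to 191 CPM for miR-34b-3p and 12.98 to 77.5 CPM for miR-34c-3p, lowest in ICH 4 in both cases.

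MiR-34a-5p, the p53-linked member, was steady in the haemorrhage groups and spread out in sham. It was at 554, 414, 710.4, 347 and 389 CPM in sham libraries 1 to 5. The ICH libraries held 629, 555, 580.2, 626 and 593 CPM, and the BYHWD libraries 596, 639, 574, 528 and 608 CPM. The coefficient of variation was 30.9% in sham, 5.23% in ICH and 7.05% in BYHWD, and this difference in spread was not tested. The sham libraries 2, 4 and 5 lay below every haemorrhage library, and sham 3 lay above them all, so the groups overlapped.

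MiR-449a-5p, from the other cluster of the family, was the rarest member and rested on 24 to 216 reads a library. It was at 16.0, 27.0, 4.10, 4.65 and 18.9 CPM in the sham libraries, at 10.4, 11.8, 9.88, 10.9 and 8.78 CPM in ICH and at 6.60, 13.6, 8.26, 8.09 and 6.69 CPM in BYHWD. The spread in sham was larger than counting error, with an exact Poisson 95% interval of 2.94 to 5.56 CPM in sham 3 and 23.6 to 30.9 CPM in sham 2. Such intervals cover counting error only, since reads without molecular identifiers are not independent molecules. Sham libraries were both the lowest and the highest of the series, and all groups overlapped.

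Whether the bleed altered the family by day 14 is asked by setting ICH against sham. None of the 6 passed at an adjusted p under 0.05 (edgeR quasi-likelihood test, Benjamini-Hochberg adjustment over all 652 tested), where 0.767% of all tested miRNAs were called (5 of 652), so 0 of 6 is near the background and is not a result about the members. The unadjusted edgeR p was under 0.05 for 137 of the 652, and DESeq2 called 48 at its adjusted threshold but none of the members. MiR-34c-5p averaged 5011.5 ± 2920.0 CPM in sham (mean ± SD, n = 5 in each group) and 5568 ± 2767 CPM in ICH. The log2 fold change was 0.15 (SE 0.42), with an adjusted p of 0.862 by edgeR and an interval of 2 SE from -0.69 to 1.00. MiR-34b-5p had a log2 fold change of -0.02 (SE 0.47), miR-34b-3p one of 0.27 (SE 0.42) and miR-34c-3p one of 0.32 (SE 0.42), and their adjusted p by edgeR lay between 0.690 and 0.984. MiR-449a-5p averaged 14.1 ± 9.79 CPM in sham against 10.4 ± 1.13 CPM in ICH, a log2 value of -0.45 (SE 0.41, adjusted p = 0.577 by edgeR). Leaving out sham 2 gave -0.06 and leaving out sham 3 gave -0.70. The median log2 fold change was 0.21 over the members and -0.02 over all tested miRNAs, and 4 of 6 members were above 0. In these bulk libraries fewer cells of a type and less RNA per cell cannot be told apart.

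For miR-34a-5p the outcome turned on single sham libraries. It averaged 483 ± 149 CPM in sham against 597 ± 31.2 CPM in ICH. The log2 fold change was 0.30 (SE 0.16, adjusted p = 0.294 by edgeR), with an interval of 2 SE from -0.02 to 0.63. Without sham 3, its highest library, it was called (log2 0.48, SE 0.13, edgeR adjusted p = 0.0488), in a fit that called 31 miRNAs in all. Without sham 4 and sham 5, the libraries with low TMM factors and its lowest levels, the log2 fold change was 0.08 (edgeR adjusted p = 0.782). Over the alternatives tried the adjusted p ranged from 0.0488 to 0.782.

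The comparison of BYHWD with ICH asks whether the decoction altered the family in mice with a haemorrhage. Over all miRNAs edgeR called 0 of 652, a background of 0%, with 31 (4.75%) at an unadjusted p under 0.05, and DESeq2 also called 0, so no member passed. MiR-34a-5p averaged 597 ± 31.2 CPM in ICH against 589 ± 41.5 CPM in BYHWD, a log2 difference of -0.02 (SE 0.16, adjusted p = 0.996 by edgeR). This was the tightest estimate of the 6. Its SE came from the fit that also held the sham libraries, so it does not reflect the narrow spread in ICH and BYHWD alone. MiR-34c-5p averaged 5740.3 ± 1868 CPM in BYHWD, a log2 difference from ICH of 0.04 (SE 0.42, adjusted p = 0.996 by edgeR) with an interval of 2 SE from -0.80 to 0.89. The other log2 differences were 0.24 for miR-34b-5p (SE 0.47), -0.10 for miR-34b-3p (SE 0.42), -0.11 for miR-34c-3p (SE 0.42) and -0.25 for miR-449a-5p (SE 0.41, and -0.48 without BYHWD 2). The median was -0.06 over the members and 0.00 over all tested miRNAs.

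Set against sham, which shares its libraries with the comparison of ICH with sham, BYHWD gave no called member either, where 2.30% of all tested miRNAs were called (15 of 652). For miR-34a-5p the log2 fold change was 0.29 (SE 0.16, adjusted p = 0.323 by edgeR). As before, it was called without sham 3 (log2 0.47, SE 0.13, edgeR adjusted p = 0.0357, with 54 miRNAs called in all), and its value was 0.06 without sham 4 and sham 5 (edgeR adjusted p = 0.878). Its adjusted p ranged from 0.0357 to 0.878 over the alternatives. MiR-449a-5p, at 8.64 ± 2.86 CPM in BYHWD, had the lowest log2 fold change of the family (-0.70, SE 0.41, edgeR adjusted p = 0.359), which was -0.30 without sham 2 and -0.95 without sham 3. Values for the miR-34b and miR-34c arms lay between 0.17 and 0.22 (SE 0.42 to 0.47), and the median over the members was 0.20, against 0.02 over all tested miRNAs.

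The 4 arms of miR-34b and miR-34c moved together from library to library. Correlations of these arms were also used above to check the move of the names by 1 row, and both uses rest on the same counts. How reads matching both 5p arms were assigned is not stated, so the r of miR-34b-5p and miR-34c-5p carries that uncertainty. On log2 CPM, miR-34b-5p and miR-34c-5p had a Pearson r of 0.976 (permutation test with 100000 resamples, two-sided, adjusted p = 3e-05 over 6 pairs) and a Spearman rho of 0.975 (adjusted p = 6e-05). For miR-34c-5p and its own 3p arm, r was 0.944 (permutation adjusted p = 3e-05) and rho 0.882 (adjusted p = 0.0001). The unadjusted p of both r values, 1e-05, is the smallest these resamples can give. Without ICH 4 and sham 5, the libraries farthest from the median of the 5p arm, r was 0.950 and 0.875, without sham 4 and sham 5 it was 0.978 and 0.959, and with each value taken against its group mean r was 0.980 and 0.946.

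No such relation was detected for miR-449a-5p or miR-34a-5p. For miR-34c-5p and miR-449a-5p, r was 0.047 (permutation adjusted p = 0.891) and rho 0.029 (adjusted p = 0.923), and r was 0.400 without ICH 4 and sham 5. Without sham 4 and sham 5 the r was 0.350 (permutation adjusted p = 0.286). The pair of miR-34c-5p and miR-34a-5p had an r of -0.148 (permutation adjusted p = 0.891) and a rho of -0.150 (adjusted p = 0.766), and r was -0.434 without ICH 4 and sham 5. Without sham 4 and sham 5 it was -0.463 (permutation adjusted p = 0.171). Both values moved away from 0 in opposite directions when these libraries were left out, and neither passed without sham 4 and sham 5. At 15 libraries a weak relation could not have been detected.

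**Figure D2:**
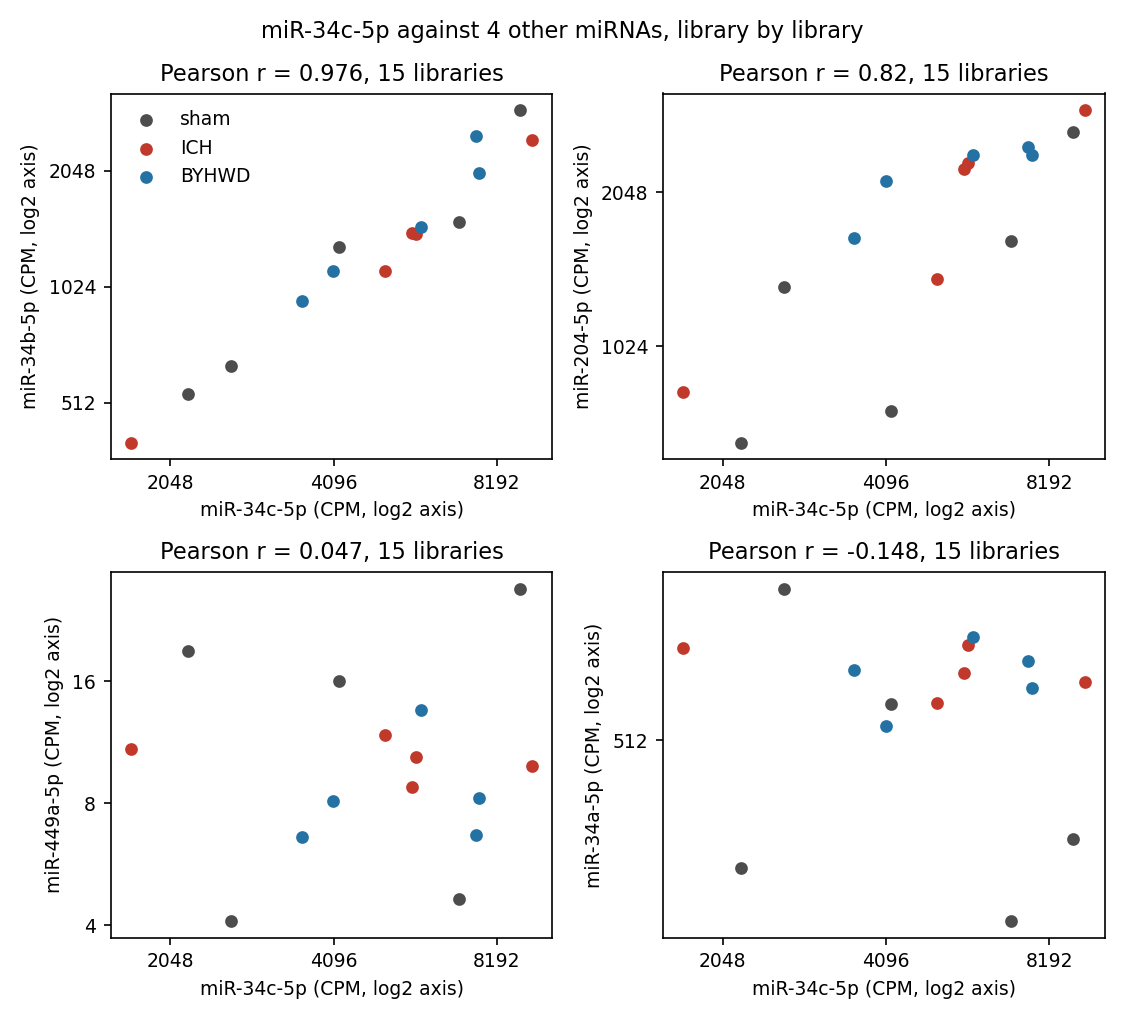
MiR-34c-5p (x axis) against miR-34b-5p, miR-204-5p, miR-449a-5p and miR-34a-5p (y axes), 1 point a library, CPM on log2 axes, coloured by group. MiR-34b-5p and miR-204-5p rise with miR-34c-5p across the libraries (r = 0.976 and 0.820), and miR-449a-5p and miR-34a-5p show no such order (r = 0.047 and -0.148).

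Ratios within a library show how constant the counts given to the products of the miR-34b/c transcript were. The ratio of the 5p arms depends on how reads matching both were assigned, which is not stated. The count of miR-34c-5p was 3.88 times that of miR-34b-5p on average, from 2.98 in BYHWD 5 to 4.62 in sham 4, while each of them varied 5.50-fold and 7.30-fold. The 5p arm exceeded the 3p arm 14.4-fold for miR-34b (10.6 to 19.0) and 127-fold for miR-34c (103 to 186). MiR-34b-3p exceeded miR-34c-3p 2.29-fold (1.79 to 2.93), the reverse of the order of their 5p arms. In contrast, the ratio of miR-34c-5p to miR-34a-5p ranged from 2.77 in ICH 4 to 21.8 in sham 2.

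Of 33 pairs of groups compared over 11 such ratios and shares, 1 had ranges that did not meet. The ratio of miR-34b-5p to miR-34b-3p was 11.8, 13.1, 12.9, 10.6 and 13.5 in ICH libraries 1 to 5. It was 15.1, 15.3, 19.0, 13.5 and 16.1 in the BYHWD libraries. The lowest BYHWD value, 13.54 in BYHWD 4, lay just above the highest ICH value, 13.50 in ICH 5. The means were 12.4 ± 1.17 in ICH and 15.8 ± 2.02 in BYHWD (SD, n = 5 each), and sham, at 15.1 ± 2.63, overlapped both. This ratio was picked out after its values were seen and was not tested, and the miR-34c ratio of 5p to 3p, at 118 ± 13.7 in ICH and 131 ± 26.1 in BYHWD, overlapped.

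**Figure D3:**
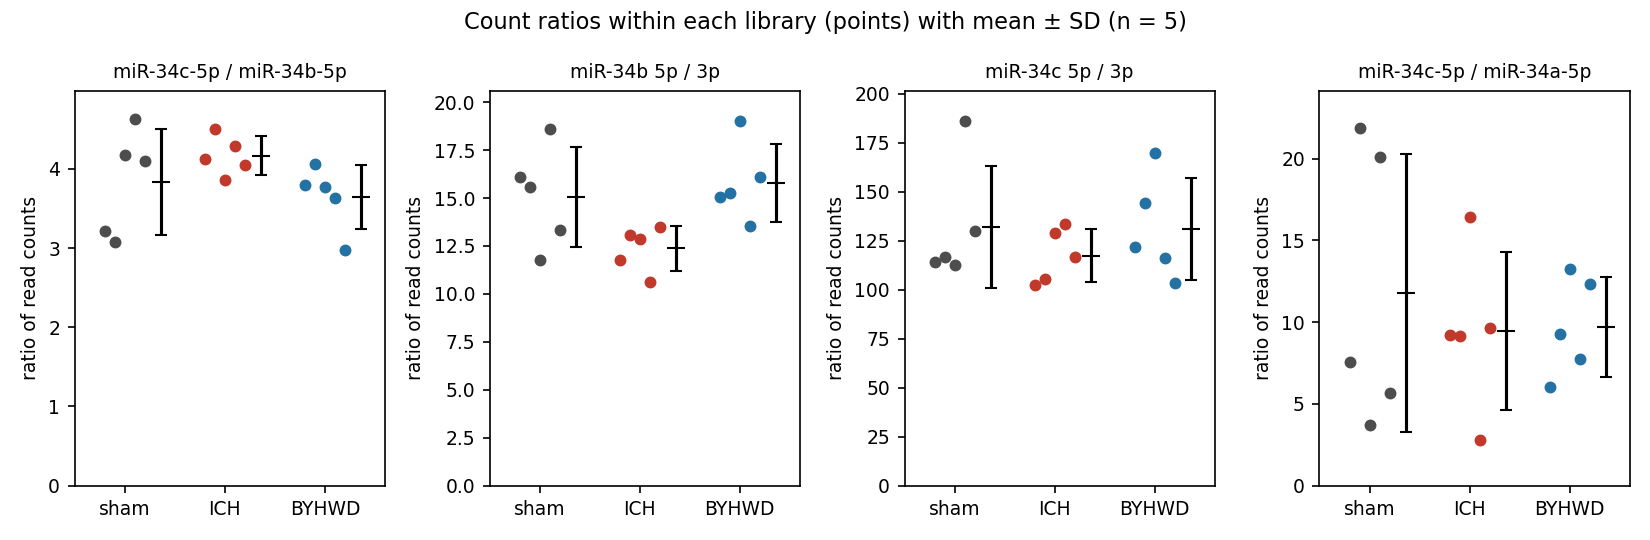
Ratio of read counts within each library (y axis, from 0) for miR-34c-5p to miR-34b-5p, the 5p to 3p arms of miR-34b and of miR-34c, and miR-34c-5p to miR-34a-5p. Points are libraries by group and bars are mean ± SD (n = 5). Ratios inside the miR-34b/c transcript stay within 1.82-fold, and that to miR-34a-5p spans 7.89-fold.

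The 5 miRNAs whose levels were most like that of miR-34c-5p were miRNAs of the choroid plexus. Among 414 other miRNAs that averaged 10 CPM or more, the 5 with the highest Pearson r on log2 CPM over the 15 libraries were miR-448-3p (0.917), miR-1298-5p (0.913), miR-1912-3p (0.899), miR-211-5p (0.866) and miR-1264-3p (0.847). All 5 are on the list of 12 choroid plexus miRNAs. MiR-448, miR-1298, miR-1912 and miR-1264 are encoded in introns of Htr2c, a serotonin receptor gene abundant in choroid plexus epithelium, and miR-211 in Trpm1. The 9 list members at or above 10 CPM had a median r of 0.847 with miR-34c-5p (0.731 to 0.917), where the median over all 414 was -0.047. Several of the 9 share Htr2c or a hairpin, so they are not separate observations, and the list was chosen with earlier results of these data known. The range was not particular to the list, as miR-130a-3p, outside it, had an r of 0.754. These values describe likeness across libraries that share their preparation and scaling, and have no p.

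MiR-204-5p, encoded in Trpm3 and a classic choroid plexus miRNA, was the list member whose correlation with miR-34c-5p was tested. The list was chosen with earlier results of these data known, so the p-values of this pair are not independent support. MiR-204-5p was at 766, 2679, 1337, 1645 and 664 CPM in sham, 2329.7, 1385, 2959.8, 832 and 2276 CPM in ICH and 1667, 2424, 2424, 2157 and 2505 CPM in BYHWD. Its r with miR-34c-5p was 0.820 (permutation adjusted p = 0.00082) and its rho 0.868 (adjusted p = 0.0001). The r was 0.666 without ICH 4 and sham 5, 0.801 without sham 4 and sham 5 and 0.855 against group means. For miR-200a-3p, a miRNA of epithelia in general, r was 0.039 (permutation adjusted p = 0.891), rho -0.132 (adjusted p = 0.766) and r without ICH 4 and sham 5 0.075 (0.039 without sham 4 and sham 5). The 4 abundant members of the miR-200 list had a median r of 0.039 with miR-34c-5p. The choroid plexus list had a median r of -0.121 with miR-449a-5p and of -0.046 with miR-34a-5p. The markers used here for multiciliated cells are the miR-34b, miR-34c and miR-449a arms themselves, so the link of the family to such cells could not be checked with other miRNAs. These markers did not all move together, as miR-449a-5p had an r of 0.047 with miR-34c-5p (0.350 without sham 4 and sham 5).

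**Figure D4:**
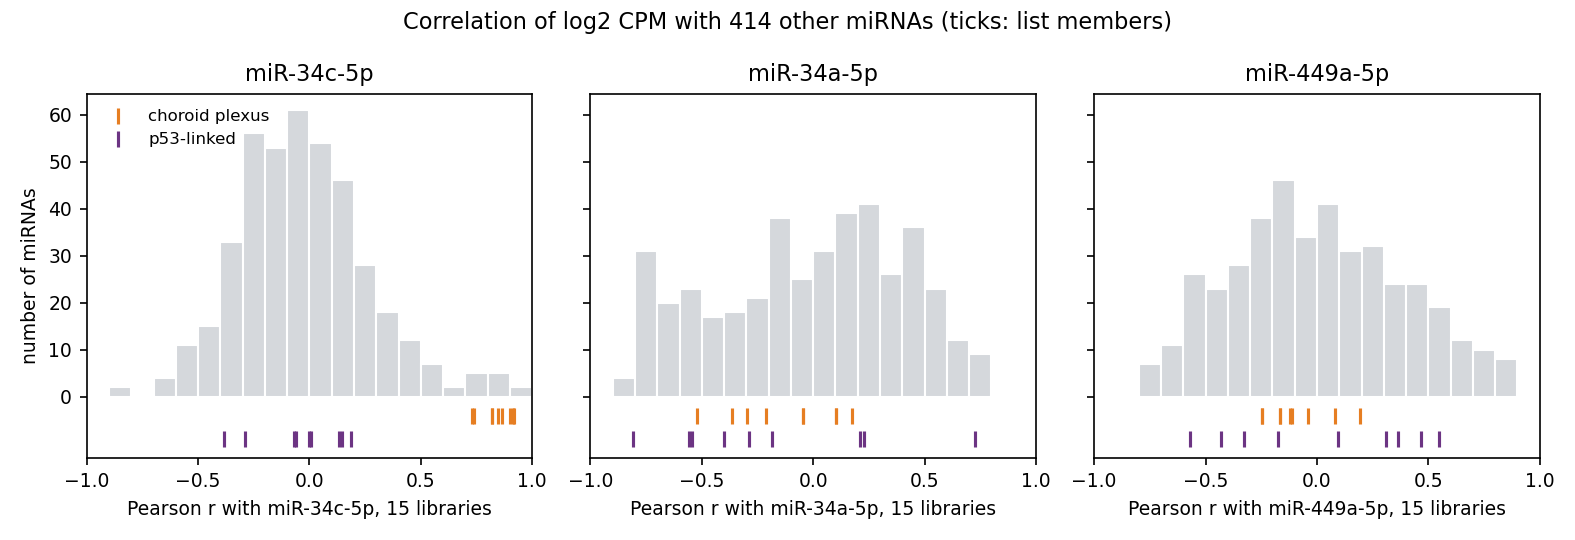
Histograms of the Pearson r of log2 CPM over 15 libraries between miR-34c-5p, miR-34a-5p or miR-449a-5p and 414 other miRNAs (x axis, r; y axis, number of miRNAs). Ticks below 0 mark members of the choroid plexus and p53-linked lists. Choroid plexus members lie at 0.731 to 0.917 for miR-34c-5p, and are scattered for miR-34a-5p and miR-449a-5p.

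The choroid plexus list itself differed more between libraries than between groups. Its 12 members summed to 2027 to 19250 CPM in sham, 2128 to 18390 CPM in ICH and 6317 to 16090 CPM in BYHWD, and no member was at 0 in a group. None of the 12 was called in any comparison. Over all tested miRNAs the share called was 0.767% in ICH against sham, 0% in BYHWD against ICH and 2.30% in BYHWD against sham. The median log2 fold change of the 12 was -0.02 in ICH against sham (5 of 12 positive). It was 0.22 in BYHWD against ICH (12 of 12 positive) and 0.25 in BYHWD against sham (9 of 12 positive). Over all tested miRNAs the medians were -0.02, 0.00 and 0.02. The lowest edgeR adjusted p of the list in BYHWD against ICH was 0.916. Several of the 12 share the host gene Htr2c, so their directions are not separate observations. The most abundant, miR-1298-5p, was at 5304 ± 6138 CPM in sham, 6296 ± 5023 CPM in ICH and 7254 ± 3731 CPM in BYHWD. MiR-204-5p had log2 fold changes of 0.46 (SE 0.36), 0.19 (SE 0.36) and 0.66 (SE 0.36) in these comparisons, and miR-1298-3p, the third, had -0.16, 0.23 and 0.07 (SE 0.25 each).

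A score for choroid plexus RNA, the mean log2 CPM of the 12 list members, ran from 4.55 in ICH 4 to 6.70 in sham 2, the libraries at or near the extremes of miR-34c-5p. With this score as a covariate in the edgeR fit, the SE of miR-34c-5p in ICH against sham went from 0.42 to 0.20, and its log2 fold change was 0.05 (edgeR adjusted p = 0.897). In BYHWD against ICH its value turned from 0.04 to -0.25 (SE 0.21, edgeR adjusted p = 0.951), and in BYHWD against sham from 0.20 to -0.20 (SE 0.21, edgeR adjusted p = 0.638). The other miR-34b and miR-34c arms had SE between 0.25 and 0.29 with the score. For miR-34a-5p the SE was 0.16 with and without it, and for miR-449a-5p 0.41 both ways, in ICH against sham. No member was called in any comparison with the score. The 9 list members at or above 10 CPM already had r values of 0.731 to 0.917 with miR-34c-5p in these libraries. The smaller SE of miR-34c-5p with the score restates those correlations and is not separate support. The unchanged SE of miR-34a-5p and miR-449a-5p likewise restates their low median r with the list (-0.046 and -0.121). This fit therefore cannot decide the part of choroid plexus RNA in the group values of miR-34b and miR-34c, which was not tested.

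**Figure D5:**
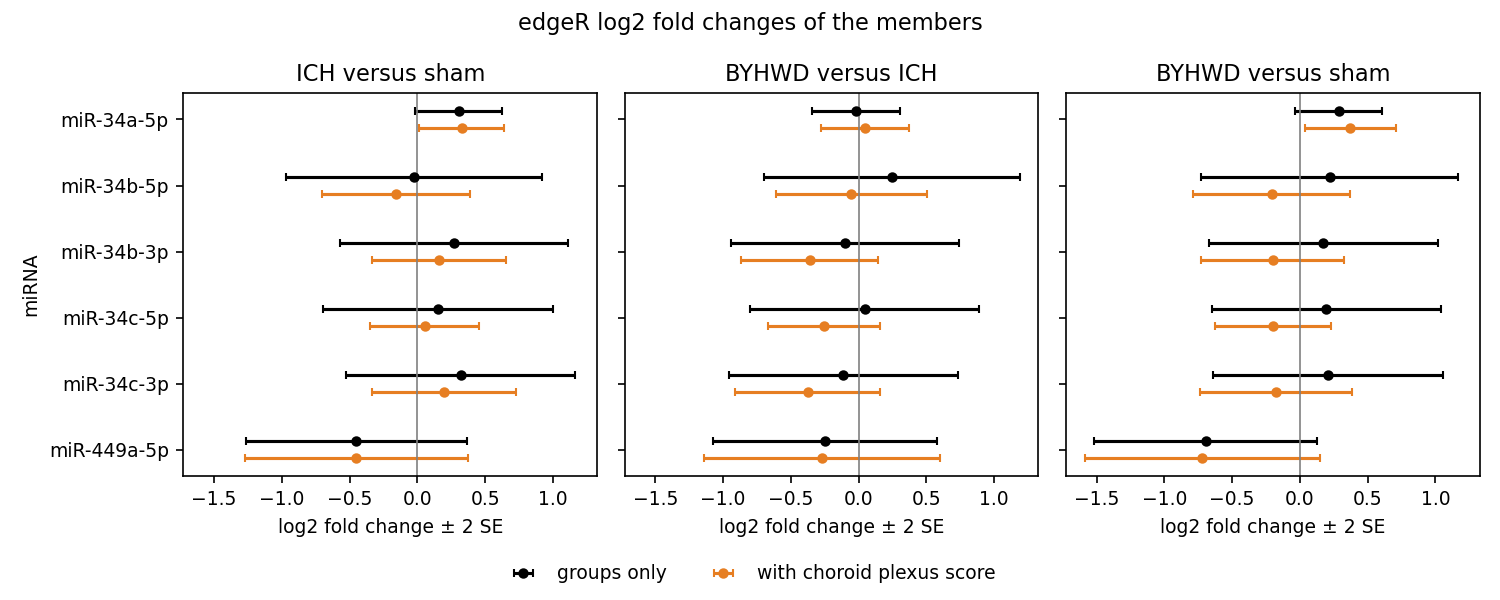
Log2 fold changes ± 2 SE of the 6 members from edgeR (x axis) in the 3 comparisons, with groups only (black) and with the choroid plexus score as a covariate (orange). The intervals of the miR-34b and miR-34c arms are narrower with the score, those of miR-34a-5p and miR-449a-5p are about as wide, and no member is called in either fit.

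MiRNAs tied to p53 other than miR-34 gave no common pattern with miR-34a-5p. The list of 11 holds miRNAs that p53 induces (such as miR-192, miR-194 and miR-107) or whose maturation it promotes (miR-143, miR-145 and miR-16), known mainly from human cells. It shares miR-200c-3p and miR-141-3p with the epithelium list. None of the 11 was called in any comparison. The share over all tested miRNAs was 0.767% in ICH against sham, 0% in BYHWD against ICH and 2.30% in BYHWD against sham. The median log2 fold change of the list was 0.04 in ICH against sham (6 of 11 positive). It was -0.04 in BYHWD against ICH (3 of 11) and 0.19 in BYHWD against sham (6 of 11). Over all tested miRNAs the medians were -0.02, 0.00 and 0.02. The list summed to 15590 to 35870 CPM in sham, 21800 to 26470 CPM in ICH and 21860 to 37460 CPM in BYHWD, most of it miR-143-3p, which is abundant in smooth muscle. MiR-143-3p had log2 fold changes of 0.04, 0.15 and 0.19 (SE 0.24 each) in the 3 comparisons.

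MiR-16-5p, a cell cycle repressor found in most tissues, was at 1296 ± 491 CPM in sham, 1009.9 ± 102 CPM in ICH and 834 ± 88.5 CPM in BYHWD. Its log2 fold changes were -0.36 (SE 0.20, edgeR adjusted p = 0.333) in ICH against sham and -0.64 (SE 0.20, edgeR adjusted p = 0.0989) in BYHWD against sham. MiR-145a-5p, transcribed with miR-143, had values of 0.35 (SE 0.16, edgeR adjusted p = 0.224) and 0.46 (SE 0.16, edgeR adjusted p = 0.124). Over the 15 libraries the 9 list members at or above 10 CPM had a median r of -0.287 with miR-34a-5p, from -0.808 for miR-16-5p to 0.728 for miR-145a-5p. The list therefore held members that ran with miR-34a-5p and members that ran against it.

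By the same likeness rule, the 5 miRNAs closest to miR-34a-5p were miR-30c-1-3p (r = 0.781), miR-133b-3p (0.779), miR-425-3p (0.778), miR-338-3p (0.771) and miR-345-5p (0.749). MiR-338-3p is a miRNA of oligodendrocytes, but miR-219a-2-3p, the other member of that list, had an r of -0.583 with miR-34a-5p. The other 4 are on none of the lists used here. All 5 values were below each of those named for miR-34c-5p. None of the r values with miR-34a-5p in this paragraph was recomputed without sham 4 and sham 5. The median over all 414 miRNAs was 0.046 for miR-34a-5p.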

How the data were processed

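The deposited values are whole-number read counts per mature miRNA, 1 table a library, which the authors did not normalize, as the differing totals show. Per the submitters' processing notes, cutadapt, Bowtie and edgeR were used on build hg38, a human assembly, although the labels give mouse and the names are mouse names. Versions and the handling of multiple matches: not given in the sources used here. In the labels, the housing text mentions rats once.

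Each of the 15 tables holds 929 values and 928 names, and the first value equals the library number in 15 of 15, so names were moved down 1 row. Of 103 row pairs with a repeated name (names on up to 4 rows), 90 (87.4%) had counts within 0.1 log2 after the move and 27 (26.2%) as printed. For each of 683 names 1 row was kept, that of highest total.

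Counts were tested with edgeR 4.0.16 in R 4.3.3 (TMM, filterByExpr, robust quasi-likelihood F-test) in 1 fit of all 15 libraries without covariates, and a miRNA was called at a Benjamini-Hochberg adjusted p under 0.05. The procedure was also tested on simulated data. Standard errors were derived from each fold change with its F statistic. Correlations used log2 CPM with a prior count of 2. DESeq2 1.42.0 was an alternative, beside DESeq2 size factors, no filter, all rows kept, a replicate block, the choroid plexus score, a prior count of 0.5, and leaving out libraries. Levels of different miRNAs were not corrected for adapter ligation.

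The members and lists were chosen with earlier results of these data known. The named miRNAs are the members, the other arm of their hairpins, the 5 miRNAs most correlated with miR-34c-5p and with miR-34a-5p, and the 3 most abundant of the choroid plexus and p53-linked lists. MiR-130a-3p is named for its r with miR-34c-5p outside the choroid plexus list. Host genes come from GENCODE M21.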

Additional observations from a re-analysis of the deposited data

Results flagged for a closer look

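In 18 groups of 5 values (6 members in 3 groups), a library far from the other 4 was found 2 times by Dixon's criterion (gap over range above 0.71). Chance flags about 1 in 20 groups. MiR-34b-3p in sham 2 was at 189.3 CPM, with a gap of 0.727 of the group's range. MiR-449a-5p in BYHWD 2 was at 13.56 CPM, with a gap of 0.761 of the range.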

How the results depend on the processing

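Of 396 member fold changes under the alternatives, 360 kept their sign and their side of the threshold, 34 turned sign and 2 passed it (miR-34a-5p without sham 3). The number of miRNAs called in ICH against sham, 5 in the main test, was 48 with DESeq2 and 4 (without sham 1) to 31 (without sham 3) with 1 library left out. In BYHWD against sham it was 15 in the main test, 52 with DESeq2, 23 with all rows kept, 9 with the replicate block, 9 with the choroid plexus score, 7 without sham 4 and sham 5, and 2 (without sham 4) to 54 (without sham 3) with 1 library left out. Of the members, 0 to 1 was then called in each. The cause was not tested.

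Sign changes of log2 values were as follows, and none of them passed the threshold. With the choroid plexus score, BYHWD against ICH gave 0.0445 for miR-34a-5p, -0.0532 for miR-34b-5p and -0.2537 for miR-34c-5p, and BYHWD against sham gave -0.2091 for miR-34b-5p, -0.2012 for miR-34b-3p, -0.2003 for miR-34c-5p and -0.1788 for miR-34c-3p. Without sham 4 and sham 5, BYHWD against sham gave -0.0191 for miR-34b-5p, -0.1086 for miR-34b-3p and -0.051 for miR-34c-3p, and ICH against sham gave -0.006 for miR-34b-3p. With all rows kept, miR-34a-5p in BYHWD against ICH was 0.0239, and with no filter miR-34b-5p in ICH against sham was 0.014. The r of miR-34c-5p and miR-200a-3p was -0.023 within groups. Leaving out 1 library gave, in ICH against sham, -0.3505 to 0.4527 for miR-34b-5p, -0.0352 to 0.7513 for miR-34b-3p and -0.1296 to 0.4767 for miR-34c-5p. In BYHWD against ICH it gave -0.053 to 0.0184 for miR-34a-5p, -0.0001 to 0.5694 for miR-34b-5p, -0.3385 to 0.2083 for miR-34b-3p, -0.1865 to 0.3259 for miR-34c-5p and -0.3797 to 0.0914 for miR-34c-3p. In BYHWD against sham it gave -0.0463 to 0.6956 for miR-34b-5p, -0.0861 to 0.6499 for miR-34b-3p and -0.08 to 0.6323 for miR-34c-3p.

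No shared deviation of same-numbered libraries was seen. They had mean correlations of -0.165 to 0.018, and 2 of 15 libraries matched their own number best. This cannot exclude that the numbers pair animals, which the labels do not say. With the replicate block, miR-34a-5p had 0.341 in ICH against sham and 0.3206 in BYHWD against sham, and no member's call changed. Depth limits miR-449a-5p most, at 24 to 216 reads a library.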
